A study of Mus musculus with 17 samples.

Results

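Glu7 is a population of hypothalamic neurons that the depositors' cluster table names as glutamatergic. It was taken here as every cell to which that table gives the name Glu7, which was 211 cells, or 1.46% of all annotated cells. It is the largest of 15 Glu clusters, with 23.3% of the 906 Glu cells and 9.11% of 2315 neurons (GABA, Glu and Hista cells), and it is set below beside the 695 cells of the other 14 Glu clusters. The cells come from the hypothalamus of B6D2F1 hybrid mice (C57BL6 female crossed with DBA2 male), dissociated and profiled by Drop-seq, a droplet method in which every polyA transcript receives a barcode of its cell and an identifier of its own (UMI). There were 3 food-deprived mice, which went without food for 24 hours, and 5 normal mice, as the labels call the other state. The labels used here give neither age nor sex of the mice. Food-deprived mouse 1 shared batch 1 with normal mouse 3, and food-deprived mouse 2 shared batch 2 with normal mouse 4. Food-deprived mouse 3 (batch 4), normal mouse 5 (batch 3) and normal mice 1 and 2 (both batch 0) were processed in batches of 1 feeding state.

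Glutamatergic neurons load their vesicles through vesicular glutamate transporters, of which Slc17a6 (VGLUT2) is the usual one in the hypothalamus. Several of the genes that lead in Glu7 are textbook genes of the ventromedial hypothalamic nucleus, a glutamatergic nucleus known for roles in energy balance, glucose counter-regulation, defence and social behaviour. Its development depends on the nuclear receptor Nr5a1 (SF-1) and on the zinc finger factor Fezf1, and many of its neurons make the peptide PACAP, encoded by Adcyap1.

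Promoters are shown first for 3 genes, those that stood highest in Glu7 over the other Glu clusters and have a sequence in the RefSeq table used. They belong to Fezf1, to Nrgn, which encodes the postsynaptic calmodulin-binding protein neurogranin, and to Gda, which encodes guanine deaminase. Each is the 250 bases before the annotated start in build GRCm38.p6, written 5′ to 3′ along the gene's strand, and capitals mark CCAAT or GGGCGG on either strand (ATTGG and CCGCCC are their reverse complements). Fezf1 lies on the minus strand (chr6:23248265-23248514), as do Nrgn (chr9:37552746-37552995) and Gda (chr19:21472662-21472911).
Fezf1: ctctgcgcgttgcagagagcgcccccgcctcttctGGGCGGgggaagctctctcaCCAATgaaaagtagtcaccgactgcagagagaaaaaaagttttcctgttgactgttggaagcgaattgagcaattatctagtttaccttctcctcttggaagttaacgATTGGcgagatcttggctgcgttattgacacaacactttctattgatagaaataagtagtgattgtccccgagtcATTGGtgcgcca
Nrgn: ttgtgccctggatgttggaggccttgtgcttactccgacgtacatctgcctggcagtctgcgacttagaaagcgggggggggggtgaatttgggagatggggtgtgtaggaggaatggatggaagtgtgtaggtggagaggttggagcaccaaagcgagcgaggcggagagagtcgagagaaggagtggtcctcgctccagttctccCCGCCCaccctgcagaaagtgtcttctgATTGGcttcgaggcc
Gda: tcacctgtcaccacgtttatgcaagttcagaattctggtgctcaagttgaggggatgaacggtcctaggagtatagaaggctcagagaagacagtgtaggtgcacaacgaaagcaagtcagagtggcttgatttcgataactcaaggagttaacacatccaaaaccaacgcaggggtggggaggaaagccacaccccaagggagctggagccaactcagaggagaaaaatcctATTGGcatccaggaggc

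The Fezf1 window held 3 CCAAT matches and 1 GGGCGG match, the Nrgn window 1 of each, and the Gda window 1 CCAAT match and 0 GGGCGG matches. Their GC content was 47.6%, 58.4% and 50%, against a median of 52.4% over all windows of this length. Of the 20 leading genes described below, 13 were matched by symbol, and 10 of these 13 held CCAAT in at least 1 of their windows. By window, that was 12 of 18, where 33.8% of 32851 windows of all genes hold the same letters. GGGCGG stood in 7 of the 18 windows, against 32.7% of all. The letters CAAGGTCA or TGACCTTG, a sequence bound by Nr5a1-type receptors, were in 0 of the 18 windows, against 1.33% of all. These are matches of letters and not measured sites. The shares of all windows are no measure for the 10 of 13 genes, since a gene can have several windows. No count was tested against its share, and at 1.33% of all windows, 18 windows are too few to show a lack.

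The level of Slc17a6, the marker given for Glu7, is a description here. The clusters were made from these same genes, so it does not test the label Glu. Slc17a6 stood at 659.8, 723 and 884 CPM (UMIs of the gene per 1000000 UMIs of the summed cells) in Glu7 cells of food-deprived mice 1, 2 and 3 and at 634 and 735 CPM in those of normal mice 3 and 5. In the other Glu cells of the same mice, in the same order, it stood at 715, 628, 849.6, 653 and 659 CPM. The ranges overlapped, so Slc17a6 does not set Glu7 apart from other Glu cells. A UMI of Slc17a6 was found in 165 of 211 Glu7 cells (78.2%), against 82.4% of other Glu cells and 2.12% of mature oligodendrocytes (MO), which lack the gene. These shares depend on depth. The median Glu7 cell held 3208 UMIs, the median other Glu cell 4641 and the median MO cell 2187. With each cell thinned to 1000 UMIs, which kept 188 Glu7 and 644 other Glu cells, the shares were 50.5% and 49.8%. Gad2, a GABA-synthesising enzyme, averaged 51.3 ± 14.9 CPM in Glu7 and 117 ± 55.1 CPM in other Glu cells (SD, n = 5 mice). It gave a UMI in 10.9% of Glu7 cells and 6.27% of MO cells.

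Totals bear on every value below. Glu7 cells held from 803 to 22597 UMIs each and 903039 in all. Food-deprived mice 1, 2 and 3 contributed 47, 32 and 51 joined cells, and normal mice 1 to 5 contributed 2, 2, 30, 5 and 40, so levels and tests used the 5 mice with at least 10 cells, that is the 3 food-deprived mice and normal mice 3 and 5. These 5 mice held 115232 to 218261 UMIs in Glu7. Of the Glu7 barcodes, 4 equal another Glu7 barcode of their library less 1 base, which would leave 207 cells if each pair is 1 cell. Of the 17 libraries, 9 held Gapdh at 4.36 to 8.53 CPM and 8 at 151 to 811 CPM, a split that does not follow the feeding state: normal mouse 3 has the first kind alone, food-deprived mouse 3 and normal mouse 5 the second alone, and food-deprived mice 1 and 2 have both. Levels of Glu7 against other Glu cells are compared within a mouse. Because the clusters were made from these same genes, such levels are a description with no test.

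**Figure D1:**
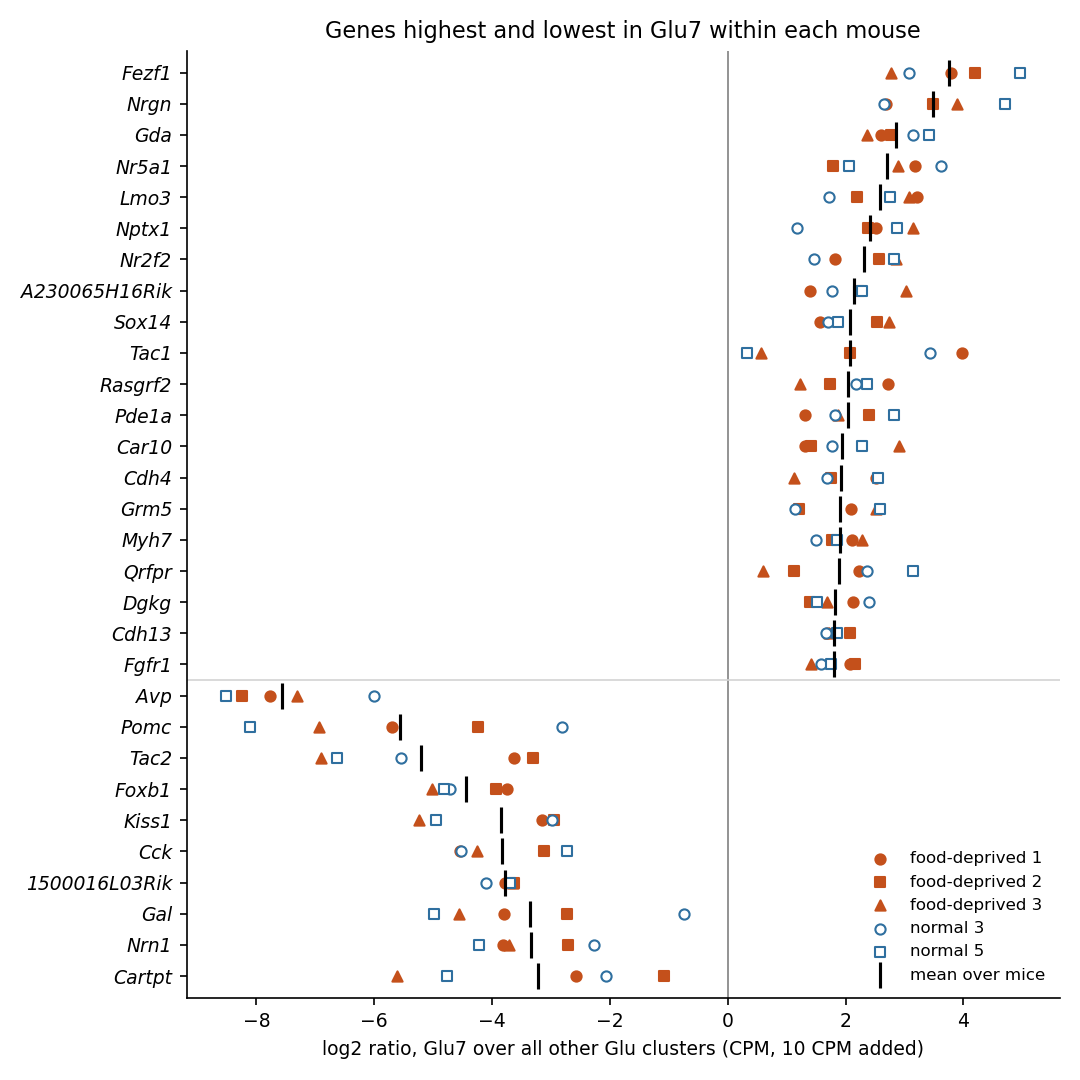
Log2 ratio of Glu7 to all other Glu clusters within each of 5 mice (CPM, 10 CPM added to both), for the 20 genes with the highest and the 10 with the lowest mean ratio. Filled symbols are food-deprived mice, open symbols normal mice and ticks the mean: Fezf1, at 3.76, is highest, Avp, at -7.57, lowest, and Tac1 has the widest spread of the 20.

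Of the genes high in Glu7, transcription factors are given first. Fezf1 stood at 199.9, 300.0 and 279 CPM in Glu7 of food-deprived mice 1, 2 and 3 and at 139 and 302 CPM in normal mice 3 and 5, against 5.12, 6.86, 32.6, 7.55 and 0 CPM in their other Glu cells. Nr5a1 stood at 80.0, 27.3, 64.1, 113 and 31.4 CPM in Glu7, against 0, 0.857, 0, 0 and 0 CPM. In these sums over the other clusters, the lowest Glu7 value was above the highest other Glu value for both genes. Taken singly, Glu15 held Fezf1 at 152 CPM, against 251 CPM over all Glu7 cells. Nr5a1 was at or below 4.94 CPM in each other Glu cluster. With 10 CPM added to both sides, the within-mouse log2 ratio was 3.76 ± 0.88 for Fezf1 and 2.70 ± 0.77 for Nr5a1 (SD over 5 mice), a scale that understates the ratio of a gene near 0 outside Glu7. Over all annotated cells, 86.9% of the 61 Nr5a1 UMIs and 66.8% of the 340 Fezf1 UMIs lay in Glu7 cells. Sox14, a SoxB2 factor, averaged 51.5 ± 25.6 CPM in Glu7 and 3.92 ± 2.32 CPM in other Glu cells. Lmo3, a LIM-only cofactor, averaged 104 ± 39.3 and 8.07 ± 3.66 CPM, and Nr2f2 (COUP-TFII), an orphan nuclear receptor, 214 ± 46.5 and 37.5 ± 20.1 CPM. None of these 3 is particular to Glu7 among the clusters. Sox14 was higher in GABA7, at 199 CPM, and stood at 51.3 CPM in Glu11, against 52.0 CPM over all Glu7 cells. Nr2f2 was higher in Glu2, at 459 CPM, and Lmo3 in GABA2, at 151 CPM. From a list of forebrain transcription factors, 41 genes were measured, and 8 were higher and 16 lower in Glu7 in every mouse (median log2 ratio -0.81). Over all 9157 genes measured, 752 (8.21%) were higher and 807 (8.81%) lower in every mouse, with a median of -0.03. List counts here and in the paragraphs that follow stand beside these shares and were not tested against them. Six3 (81.0 ± 22.5 CPM in Glu7, 21.2 ± 7.31 CPM in other Glu cells), Isl1 (104 and 38.2 CPM) and Nkx2-1 (99.2 ± 41.4 and 54.9 ± 23.0 CPM), homeobox factors of the ventral forebrain, had higher means in Glu7 than in the summed other clusters. Single clusters exceeded Glu7 for each. Six3 was higher in Glu13, at 168 CPM, and in Glu9, against 80.8 CPM over all Glu7 cells. Isl1 was higher in Glu13 and Glu12, at 252 and 109 CPM, against 103 CPM. Nkx2-1 was higher in Glu5, at 147 CPM, against 104 CPM.

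Nrgn and Gda had the highest ratios after Fezf1. Nrgn stood at 1319.6, 1732 and 1636 CPM in Glu7 of food-deprived mice 1, 2 and 3 and at 963 and 1125 CPM in normal mice 3 and 5, against 196, 145, 101, 145 and 33.7 CPM in other Glu cells. Gda stood at 625, 614, 623, 581 and 829 CPM in Glu7, against 94.2, 81.4, 112, 56.6 and 68.9 CPM. Both were several times higher in Glu7 in each of the 5 mice, with log2 ratios of 3.49 ± 0.86 and 2.86 ± 0.42. Outside the Glu class Gda was nearly as high in GABA3, at 623 CPM against 631 CPM over all Glu7 cells, and Nrgn reached 808 CPM in GABA14. Rasgrf2, a calcium-regulated exchange factor for Ras, averaged 215 ± 82.0 CPM in Glu7 and 41.9 ± 3.85 CPM in other Glu cells. Pde1a, a calmodulin-dependent phosphodiesterase, averaged 272 ± 107 and 55.1 ± 10.3 CPM, and Dgkg, a diacylglycerol kinase, 176 ± 48.6 and 41.5 ± 6.72 CPM. Pcp4, a small calmodulin regulator, went the other way with 1293 ± 355 CPM in Glu7 and 3258 ± 1234 CPM in other Glu cells. Of 14 calcium-binding protein genes measured, 2 were higher and 4 lower in Glu7 in every mouse (median log2 -0.15).

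Cdh13 (T-cadherin) had the steadiest ratio of the 20, with 309.9, 416, 454, 347 and 553 CPM in Glu7 and 90.1, 90.9, 130.3, 102 and 146 CPM in other Glu cells (log2 1.80 ± 0.17). Cdh4 (R-cadherin) averaged 152 ± 40.6 CPM in Glu7 and 32.2 ± 8.51 CPM in other Glu cells. The adhesion and axon guidance list as a whole did not lean, with 6 of 42 measured genes higher and 7 lower in every mouse (median log2 0.13). Nptx1, a pentraxin that clusters AMPA receptors, averaged 98.2 ± 39.7 and 10.4 ± 6.94 CPM. Glu7 was the highest of 46 named clusters for all 3 of these genes, and for 9 of the 20 leaders in all. Grm5, a metabotropic glutamate receptor, averaged 316 ± 67.1 CPM in Glu7 and 79.2 ± 30.1 CPM in other Glu cells, and the AMPA receptor subunit Gria1 566 ± 67.4 and 176 ± 29.5 CPM. Of 26 glutamate and GABA receptor genes measured, 9 were higher and 2 lower in Glu7 in every mouse (median log2 0.38). Qrfpr, the receptor of the peptide QRFP, averaged 64.8 ± 35.4 CPM in Glu7 and 8.87 ± 5.17 CPM in other Glu cells. Fgfr1, a fibroblast growth factor receptor, averaged 166 ± 23.9 and 40.9 ± 7.88 CPM. The remaining leaders are Car10, a carbonic anhydrase-related protein, Myh7, a myosin heavy chain, and the unnamed transcript A230065H16Rik, at log2 1.94 ± 0.66, 1.90 ± 0.30 and 2.14 ± 0.61. Of all 4159 genes with at least 50 CPM in Glu7, 29 (0.697%) were at least 2 times higher in Glu7 in every mouse, and of 4074 genes with at least 50 CPM in other Glu cells, 36 (0.884%) were at least 2 times lower.

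Syn2, a synapsin that tethers vesicles, averaged 689 ± 132 CPM in Glu7 and 317 ± 35.9 CPM in other Glu cells, and no other named cluster was higher. Of 22 vesicle and release genes measured, 7 were higher in every mouse and 0 lower (median log2 0.26), where 8.21% of all genes measured were higher and 8.81% lower. Granule proteins did not share a direction, with Chga at 749 ± 98.0 and 436 ± 98.0 CPM, Chgb at 739 ± 118 and 1170.1 ± 208 CPM, and Scg2 at 2086 ± 443 and 3589 ± 1028 CPM in Glu7 and other Glu cells. Cacna2d1, a calcium channel subunit that binds gabapentin, averaged 818 ± 194 and 351 ± 57.5 CPM, and Scn2a1, a sodium channel, 470.1 ± 101 and 289 ± 36.6 CPM. Over 33 ion channel genes, 6 were higher and 4 lower in every mouse (median log2 0.06). Genes of the unfolded protein response, which serve protein folding in the endoplasmic reticulum, were lower in Glu7 in every mouse for 11 of 23 and higher for 1 (median log2 -0.38). The chaperone Hsp90b1, for example, averaged 1185 ± 210.4 CPM in Glu7 and 1798 ± 348 CPM in other Glu cells.

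Lists of genes known from hypothalamic nuclei were then set side by side, and a gene can stand in more than 1 list. Of 12 genes listed for the ventromedial nucleus, 10 were measured, and 7 of these were higher and 0 lower in Glu7 in every mouse (median log2 1.6). Their sum was 1666 to 2044 CPM in Glu7 and 407 to 519 CPM in other Glu cells over the 5 mice. Besides Fezf1, Nr5a1, Sox14 and Gda, the list holds Adcyap1 (343 ± 93.7 CPM in Glu7, 183 ± 22.8 CPM in other Glu cells), the synaptic organiser Cbln1 (225 ± 62.2 and 65.8 ± 26.3 CPM) and the pentraxin Nptx2 (96.0 ± 32.3 and 28.2 ± 14.6 CPM). Taken singly, Glu5 and Glu6 held more Adcyap1, at 427 and 390 CPM, than Glu7, at 318 CPM over all its cells. Cbln1 was higher in Glu10, at 321 CPM, than in Glu7, at 243 CPM. The remaining Glu clusters were lower than Glu7 for both genes. Nkx2-1, also on the list, had a higher mean in Glu7 but was not higher in every mouse, and Glu5 alone held more of it than Glu7. Of the 12 members, 9 averaged at least 20 CPM in Glu7. Esr1 and Vgll2 were near 0 and are named after their values were seen. Esr1, an oestrogen receptor of the ventrolateral part of that nucleus, gave a UMI in 4 of 211 Glu7 cells, and Vgll2 averaged 7.18 ± 8.43 CPM in Glu7 and 5.94 ± 6.20 CPM in other Glu cells. Lists of other nuclei held fewer genes high in Glu7. All 6 measured arcuate genes were lower in Glu7 in every mouse (median log2 -3.31). For the paraventricular and supraoptic nuclei 4 of 8 measured genes were lower and 1 higher (-1.89). For the mammillary region 4 of 5 were lower and 1, Cbln1, higher (-2.65). For the lateral hypothalamus 1 of 5 was lower and 1, Nptx2, higher (-1.81). Cbln1 and Nptx2 are also counted in the ventromedial list. For the ventral premammillary nucleus 1 of 3 was lower and 1 higher (-0.87), as for the preoptic and suprachiasmatic list (0.22), and the 1 measured dorsomedial gene was neither (-0.71). Of all genes measured, 8.21% were higher and 8.81% lower in every mouse. The lists were drawn up with earlier results of these data known.

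Peptide genes held the lowest ratios. Avp, which encodes vasopressin, stood at 35.0, 13.6 and 41.2 CPM in Glu7 of food-deprived mice 1, 2 and 3 and at 86.8 and 6.28 CPM in normal mice 3 and 5, against 9867, 7154, 8135, 6172 and 5928 CPM in other Glu cells. Pomc, the melanocortin precursor, stood at 15, 13.6, 45.8, 26.0 and 0 CPM, against 1288, 437, 6868, 244 and 2759.5 CPM. No other gene with at least 50 CPM in other Glu cells had as low a mean ratio as these 2, at log2 -7.57 ± 0.99 and -5.56 ± 2.10. Avp gave a UMI in 9.0% of Glu7 cells and 8.73% of MO cells, so its Glu7 reads are at the level seen in cells that do not make it. The 10 lowest genes also held Tac2, Kiss1, Cck, Gal and Cartpt, which encode neurokinin B, kisspeptin, cholecystokinin, galanin and CART, the mammillary factor Foxb1, the membrane protein gene Nrn1 (neuritin), and 1500016L03Rik. Of 29 peptide genes measured, 17 were lower in every mouse and 4 higher (median log2 -2.14). Tac1, the precursor of substance P, was among the higher ones, and it varied more than any other leader, with 519.8, 1316 and 422 CPM in Glu7 of food-deprived mice and 2005 and 320.4 CPM in normal mice 3 and 5. In other Glu cells it stood at 23.5, 303, 281, 177 and 253 CPM. Its log2 ratio was 2.08 ± 1.64.

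Receptors of feeding signals were read from a list that also holds Bdnf. Of 21 measured, 7 were higher and 2 lower in Glu7 in every mouse (median log2 0.28). The cannabinoid receptor Cnr1 averaged 124 ± 25 CPM in Glu7 and 29.0 ± 8.04 CPM in other Glu cells, and the cholecystokinin receptor Cckbr, named after its values were seen, 38.6 ± 17.1 and 8.40 ± 3.85 CPM. The leptin receptor Lepr, also named after its values were seen, gave a UMI in 0 of 211 Glu7 cells, which allows a share of up to 1.42% of cells with a UMI and sets no limit on cells that express the gene, against 1.15% of other Glu cells and 0.0565% of MO cells. At this depth no difference could be seen. Bdnf, a neurotrophin, averaged 275 ± 45.3 CPM in Glu7 and 226 ± 52.2 CPM in other Glu cells. Taken singly, Glu5, Glu6, Glu10 and Glu2 held it at 452, 364, 462 and 321 CPM, against 276 CPM over all Glu7 cells. The remaining Glu clusters were lower than Glu7.

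**Figure D2:**
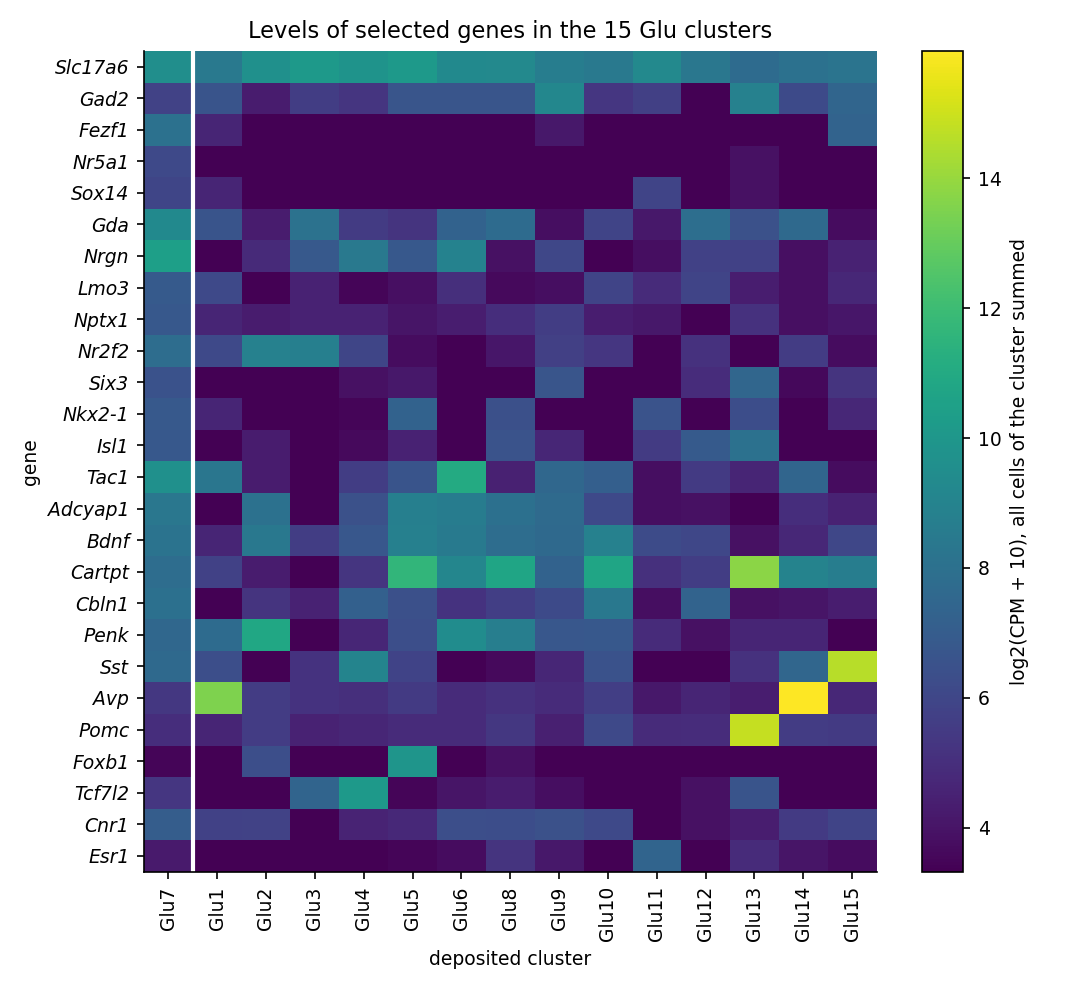
Levels of 26 genes in the 15 Glu clusters, with Glu7 at the left, as log2 of CPM plus 10 over all annotated cells of a cluster. Nr5a1, at 58.7 CPM, stands out in Glu7 alone, Fezf1 also in Glu15, at 152 CPM, while Avp peaks in Glu14 and Pomc in Glu13.

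The Glu clusters with the most similar profile were Glu6, Glu8 and Glu5, with Spearman correlations of 0.905, 0.890 and 0.890 over 10544 genes, given as a description. Glu4, also at 0.890, was level with Glu5. All clusters share their libraries, and Glu6 and Glu8 hold 51 and 50 cells. None of these 3 clusters gave a UMI of Fezf1, Nr5a1 or Sox14. Nrgn reached 479 CPM in Glu6, the next Glu cluster after Glu7 at 1415 CPM, and Tac1 was higher in Glu6, at 2122 CPM, than in Glu7, at 799.5 CPM over all its cells. Foxb1 stood at 1.11 CPM in Glu7 and 941 CPM in Glu5, and Cartpt at 220.4 CPM in Glu7, 3149 CPM in Glu5 and 1721 CPM in Glu8.

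Within Glu7, cells differed in which of these genes they showed. Fezf1 gave a UMI in 93 of 211 cells (44.1%, 95% Wilson interval 37.5% to 50.8%), against 2.73% of other Glu cells and 0.113% of MO cells. Nr5a1 did so in 44 Glu7 cells (20.9%), against 0.144% and 0.0282%. Both shares were far above those in MO cells. Thinned to 1000 UMIs per cell, Fezf1 was found in 25% of Glu7 and 0.466% of other Glu cells, Nrgn in 56.4% and 6.99%, and Gda in 45.7% and 5.59%. At least 1 of Fezf1, Nr5a1 and Sox14 was seen in 118 Glu7 cells (55.9%), against 4.60% of other Glu and 0.169% of MO cells. The median was 4675.5 UMIs in the 118 cells and 1534 UMIs in the Glu7 cells without any of the 3. Detection therefore moved with depth, and its part in the split was not tested. With Gda and Nrgn added, 187 of 211 Glu7 cells showed at least 1 of the 5. Over all annotated cells both Fezf1 and Nr5a1 were seen together in 22, and all 22 were Glu7 cells. Outside Glu7, Fezf1 was seen in 19 other Glu cells, 22 cells of the deposited group zothers and 24 cells of further clusters.

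Some transcripts were concentrated in few Glu7 cells, and those named for it were chosen after their values were seen. Over 2081 genes with at least 100 UMIs in Glu7, the 21 cells with the most UMIs of a gene held a median of 45.8% of them (10th to 90th percentile 37.7% to 54.8%), and the 21 deepest cells held 30.9% of all UMIs. Cartpt, Sst and Tac1 had 94.0%, 90.1% and 85.9% of their UMIs in 21 cells, and 1 cell alone held 121 of the 722 Tac1 UMIs. Penk, the enkephalin precursor, had 84.4%. These peptide transcripts were seen in a minority of Glu7 cells. Tac1 gave a UMI in 54 Glu7 cells (25.6%), against 11.9% of other Glu and 2.37% of MO cells. Penk did so in 40, Sst in 38 and Cartpt in 33 Glu7 cells, with 2.23%, 3.47% and 4.07% in MO cells. The activity-induced genes Fosb (87.8%), Npas4 (85%) and Fos (76.5%) were concentrated as well. Among the leading genes with at least 100 UMIs, Pde1a (63.2%), Cdh4 (59.5%) and Myh7 (56.1%) lay above the 90th percentile, besides Tac1. The other such leaders, Gda (39.6%) and Fezf1 (50.7%) among them, lay between the 10th and 90th percentiles. Leaders with fewer than 100 UMIs ranged from 46.2% (Nptx1) to 90.9% (Qrfpr). Tac1 cells showed Fezf1 in 48.1% and Tac1-free cells in 42.7%, with median depths of 4224 and 2849 UMIs.

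**Figure D3:**
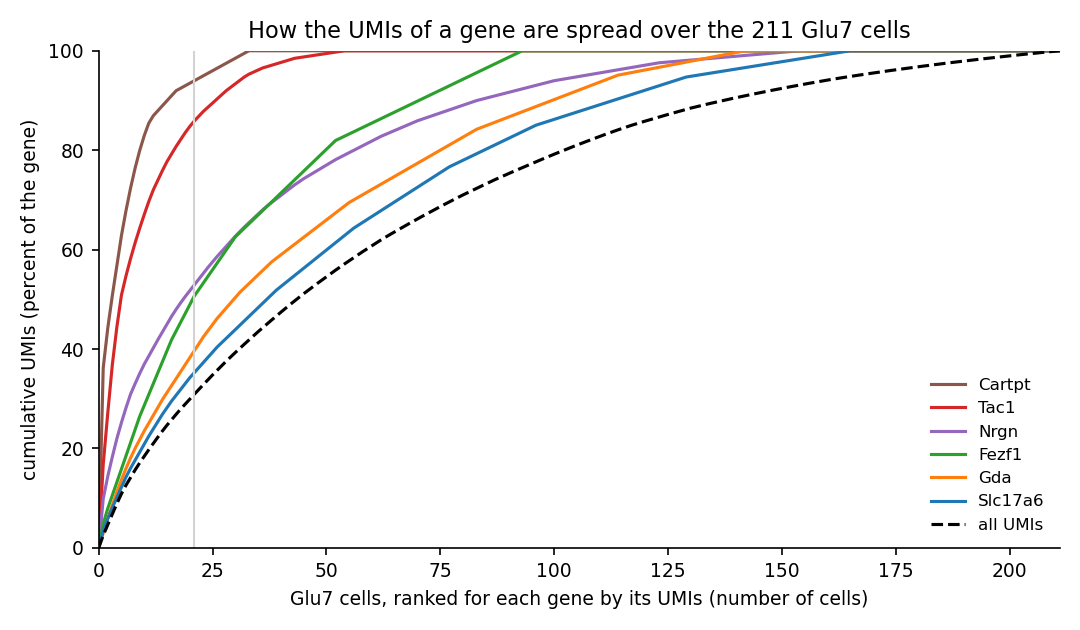
Cumulative percent of a gene's UMIs over the 211 Glu7 cells, ranked for each gene from the cell with most to the cell with fewest, with the grey line at 21 cells. Cartpt and Tac1 reach 94.0% and 85.9% at the line, Nrgn, Fezf1, Gda and Slc17a6 lie lower, and all UMIs, the dashed curve, reach 30.9%.

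Markers of other cell types were summed for each of the 5 mice. Microglia and macrophage markers summed to 0 to 35.0 CPM in Glu7, against 4.81 to 20.5 CPM in other Glu cells, with 6 of the 10 markers at 0 in Glu7. Myelinating oligodendrocyte markers summed to 202 to 955 CPM, against 351 to 1419 CPM. Astrocyte markers summed to 426 to 911 CPM in Glu7 and 258 to 430.3 CPM in other Glu cells, and most of that was Aldoc, a glycolytic enzyme at 497 ± 160.4 CPM in Glu7. The other astrocyte genes stood low, with Slc1a2 at 47.6 ± 21.2 and Gja1 at 3.83 ± 5.26 CPM in Glu7. Tanycyte and ependymal markers summed to 49.99 to 109 CPM in Glu7 and 28.8 to 47.4 CPM in other Glu cells, and vascular markers to 45.8 to 214 CPM and 35.1 to 145 CPM. The part of such transcripts in the values above was not tested.

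Whether food deprivation changed the share of Glu7 was asked next. Glu7 made up 26.0%, 17.6% and 42.5% of the Glu cells of food-deprived mice 1, 2 and 3, and 19.5%, 7.04% and 22.5% of those of normal mice 3, 4 and 5, the mice with at least 20 Glu cells. The groups overlapped. The mean was 28.7 ± 12.7% in food-deprived mice and 16.3 ± 8.18% in normal mice (SD, n = 3 each), and the difference of 12.4 percentage points did not pass a two-sided exact permutation test (p = 0.3, where 0.1 is the smallest this design allows). Of all neurons, Glu7 made up 9.42%, 7.96% and 15% in food-deprived mice, against 4.88%, 8.45%, 2.54% and 8.99% in normal mice 2 to 5. The means were 10.8 ± 3.74% (n = 3) and 6.21 ± 3.06% (n = 4), and the two-sided exact permutation test gave p = 0.2. With p-values adjusted over these 2 denominators neither passes. In batch 1 the share of Glu cells was 26.0% in the food-deprived and 19.5% in the normal mouse, and in batch 2 it was 17.6% and 7.04%. The share of neurons was 9.42% and 8.45% in batch 1, and 7.96% and 2.54% in batch 2. Without food-deprived mouse 3, which had the highest share, the difference was 5.44 points of Glu cells and 2.48 points of neurons. Shares of dissociated cells may differ from those in tissue, which was not tested.

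**Figure D4:**
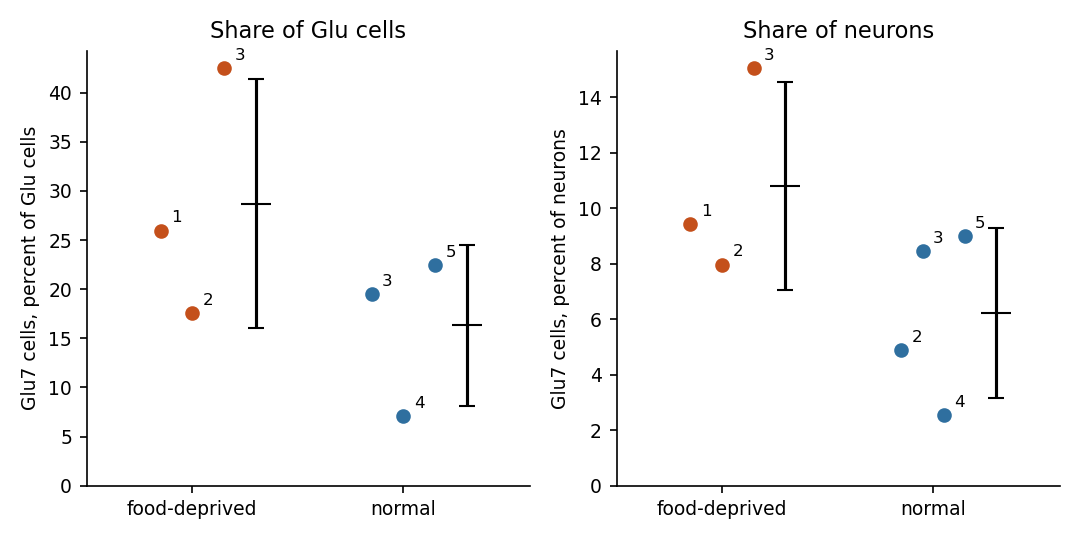
Glu7 cells as percent of Glu cells (left) and of neurons (right) in each mouse, food-deprived mice left of normal mice, with the mouse number beside each point and the mean and SD as black bars. Food-deprived mouse 3 stands highest in both panels, at 42.5% and 15%, and the other food-deprived mice lie among or close to the normal ones.

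The effect of food deprivation on transcript levels within Glu7 was tested over the 3 food-deprived mice and normal mice 3 and 5 with edgeR's quasi-likelihood test on summed UMIs. No gene passed: 0 of 3994 genes (0%) had a Benjamini-Hochberg adjusted p under 0.05, the smallest being 0.9998. At an unadjusted p under 0.05 there were 87 genes (2.18%), and DESeq2 called 0 genes with 18 at that unadjusted level. The same mice gave 0 of 9040 genes (0%) in the other Glu cells by edgeR, with 288 (3.19%) at unadjusted p under 0.05, and DESeq2 called 1, Sst, with 99 at that level. The difference between the responses of Glu7 and of other Glu cells, a cluster by state term with the mouse as block, gave 0 of 6487 genes (0%) by edgeR and 0 by DESeq2, with 209 (3.22%) and 34 at the unadjusted level. The median standard error of a log2 change was 0.42 in Glu7 and 0.32 in other Glu cells, so changes of moderate size could not be resolved in Glu7. With 2 normal mice in the test, 1 of them of the first Gapdh kind and the other of the second, library kind and batch cannot be told apart from the mice.

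Values in this test are CPM scaled to TMM-adjusted totals of the tested genes and run higher than the plain CPM above. The genes marking Glu7 did not pass the test. Fezf1 stood at 238, 355 and 329.6 CPM in food-deprived mice and 161 and 359 CPM in normal mice 3 and 5 (log2 0.22 ± 0.38 SE). Nr5a1 stood at 95.4, 32.3 and 75.6 CPM, against 131 and 37.4 CPM (-0.20 ± 0.64). These groups overlapped, as did those of Gda, with 745, 727 and 735 CPM in food-deprived and 674 and 986 CPM in normal mice (-0.18 ± 0.26). Nrgn was one of 2 leading genes with every food-deprived mouse above both normal mice, at 1574, 2052 and 1929 CPM against 1117 and 1337 CPM (0.59 ± 0.23), and Lmo3 was the other. Over all genes tested, 340 (8.51%) had every food-deprived mouse above and 303 (7.59%) below. Of the 19 leading genes tested, 7 had a log2 change above 0 and 12 below, with a median of -0.09, beside 0.01 for all genes.

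Of the 10 genes with the smallest p on each side, all 20 had groups that did not overlap, which is how such genes come out on top, and none passed adjustment in edgeR. Among those with higher values after food deprivation were Mt1, a metallothionein that glucocorticoids and zinc induce, and Hif1a, the oxygen-regulated factor. Mt1 stood at 584, 1082 and 729 CPM in food-deprived and 443 and 441 CPM in normal mice (log2 0.85 ± 0.31 SE). Hif1a stood at 89.4, 113 and 59.4 CPM, against 10.1 and 29.9 CPM (1.98 ± 0.73). Its normal values rest on very few UMIs, so the size of this change is poorly known. Hif1a was tested in 9 alternative settings, where Mt1 was tested in 13. In other Glu cells Mt1 had a log2 change of 0.40 ± 0.46 and Hif1a of 0.39 ± 0.31. The others on that side were Arpc4, Jtb, Sssca1, Gtl3, Sepw1, Iscu, Ppp1r1a and Mcart1, with log2 changes of 0.83 to 1.70. On the lower side were the AMPA receptor subunit Gria3, the Rab3 effector Rph3a (rabphilin), the aminopeptidase Npepps and the adenylate cyclase Adcy2. Gria3 stood at 185, 113 and 157 CPM in food-deprived and 322 and 314 CPM in normal mice (-1.05 ± 0.32). Rph3a stood at 65.6, 72.7 and 64.8 CPM, against 201 and 134 CPM (-1.29 ± 0.42). In other Glu cells Rph3a stood at 246, 194 and 261 CPM in food-deprived and 247 and 218 CPM in normal mice, and the groups overlapped. Over all 9040 genes tested there, 781 (8.64%) had every food-deprived mouse above and 821 (9.08%) below both normal mice. Npepps stood at 274, 186 and 227 CPM in Glu7 of food-deprived and 463 and 538 CPM of normal mice (-1.12 ± 0.31), with the smallest unadjusted p of all genes tested. The rest of that side were 6430704M03Rik, Rabggta, Ddx27, Mrps25, Prelid1 and Ap3b2, with log2 changes of -2.01 to -0.90.

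**Figure D5:**
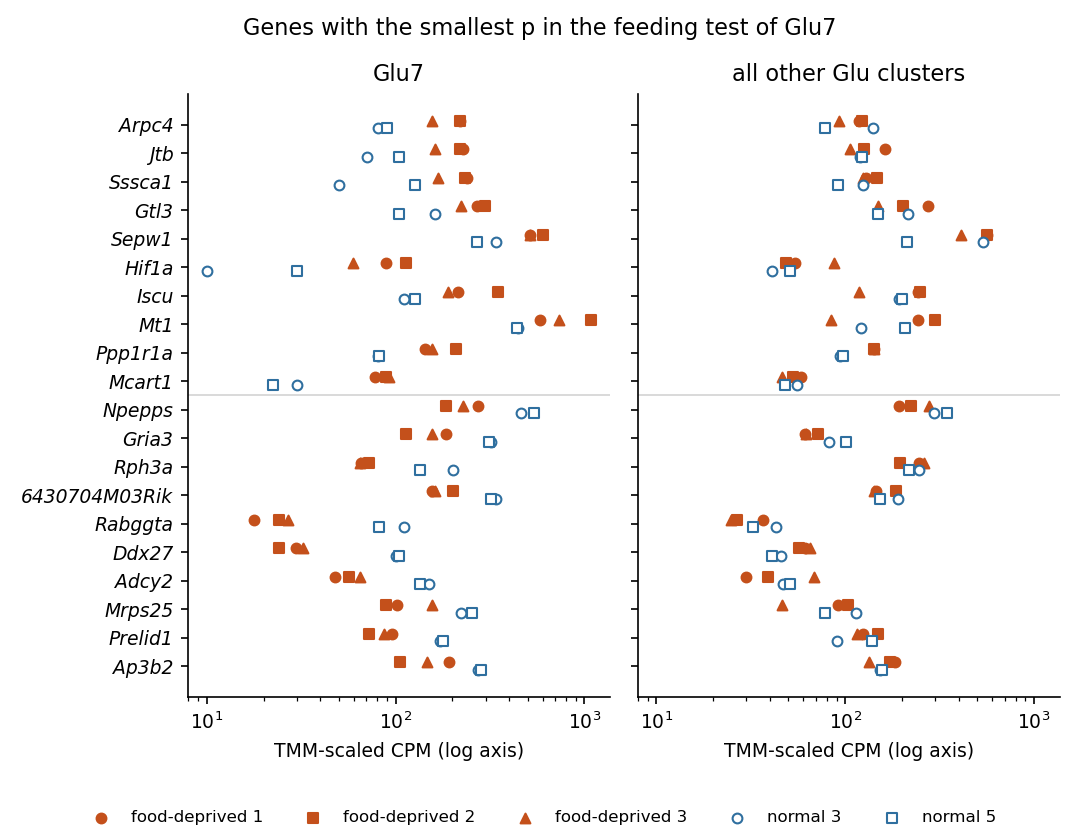
TMM-scaled CPM, on a log axis, of the 20 genes with the smallest p in the feeding test of Glu7, in Glu7 (left panel) and in all other Glu clusters (right panel) of the same mice, with filled symbols for food-deprived and open symbols for normal mice. In Glu7 the groups do not overlap for any of the 20 genes.

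Gene lists gave 0 calls of edgeR in Glu7. For comparison, 2031 of all 3994 genes tested had a log2 change above 0 and 1963 below (median 0.01). Every food-deprived mouse was above both normal mice for 8.51% of these genes and below both for 7.59%. The list counts that follow were not tested against these shares. Of 13 immediate early genes tested, 6 had a log2 change above 0 and 7 below (median -0.03), and 0 had groups that did not overlap. Fos stood at 119, 1721 and 627 CPM in food-deprived and 422 and 1330.0 CPM in normal mice (-0.12 ± 0.73 SE), so mice of 1 state differed more than the states did. Of 8 glucocorticoid-induced genes, 6 were above 0 (median 0.64), with 2 where every food-deprived mouse was above both normal mice. Of 11 heat shock genes, 1 was above and 10 below 0 (median -0.18). Of 18 glutamate and GABA receptor genes, 7 were above and 11 below (median -0.06), and 4 had every food-deprived mouse below both normal mice. Of 10 peptide genes, 7 were above and 3 below (median 0.29), and of 7 ventromedial nucleus genes, 5 and 2 (median 0.22).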

How the data were processed

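Drop-seq libraries of the hypothalamus of 3 food-deprived and 5 normal mice (17 libraries) were used. The authors deposited raw UMI counts per gene and cell, with no normalization by them, for each library and merged for the annotated cells, and 1 cluster name per cell. Build mm9 is given per the submitters' processing notes. Aligner and counter: not given in the sources used here. Annotated cells were joined to libraries by batch, state and barcode: 14276 of 14437 cells (209 of 211 Glu7 cells) matched 1 library with identical counts. The other 161 have a barcode found in more than 1 library of their batch and state, and values per mouse leave them out.

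UMI counts were summed per mouse. Plain CPM describes levels. Mice with at least 10 Glu7 cells entered edgeR 4.0.16 (R 4.3.3; TMM, filterByExpr, glmQLFTest, Benjamini-Hochberg at 0.05), checked on simulated counts, and DESeq2 1.42.0 as an alternative. Shares used two-sided exact permutation tests over mice. Log2 ratios have 10 CPM added, and a list member counted as measured with at least 20 CPM over Glu7 and other Glu summed. Intervals are 95% Wilson intervals, and a count of 0 allows up to 3 counts. Both cover counting error only. P-values set a difference against the variation between these mice, in which batch and library kind take part.

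Named genes were the 20 highest and 10 lowest by mean within-mouse log2 ratio (at least 50 CPM, same side in every mouse, genes listed as moving with the library kind left out), the 10 smallest p on each side of the feeding test, and at most 6 members of each list, by level in Glu7. Members and lists were chosen with earlier results of these data known. Doublets were not called, and no cells were removed beyond the depositors' selection. Promoters are from RefSeq (GRCm38.p6), matched by symbol, and no coordinates of the deposited files were used.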

Additional observations from a re-analysis of the deposited data

How the results depend on the processing

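No paired analysis was possible because the replicate numbers were given in accession order and do not mark shared animals. Batch was used as a block instead, as given below. Leaving out 1 mouse at a time gave 0 to 0 calls in Glu7, 0 to 0 in other Glu cells, and 0 to 2 for the difference of responses (1, Pcp4, without food-deprived mouse 1, and 2, Hcrt and Oxt, without normal mouse 5). Without a filter on low counts edgeR called 2 genes in Glu7, Nf2 higher and Oxt lower after food deprivation, and 35 in other Glu cells. With low-Gapdh libraries alone, which leave food-deprived mice 1 and 2 and normal mouse 3, it called the same 2 genes in Glu7, 40 in other Glu cells and 4 for the difference. Oxt in Glu7 stood at 5.0, 47.7 and 18.3 CPM in food-deprived mice and 269 and 25.1 CPM in normal mice 3 and 5, and 79.8% of the Nf2 UMIs lay in 21 cells. DESeq2 called 1 gene, Sst, in other Glu cells. With batch as block and at least 5 Glu7 cells per mouse, chosen after seeing the data, Glu7 had 0 calls and other Glu cells 9. Gapdh, which tells the library kinds apart, was among the 9. Only batches 1 and 2 hold both states, with 1 mouse of each, so the feeding term of this fit rests on them. The log2 change of Sepw1 in Glu7 was -0.064 in this fit. The cause was not tested for any of these. Genes named here were chosen after their values were seen. Where 1 normal mouse remained, it was assumed to vary like the other mice. Of 246 values of the 20 genes under alternatives, 245 kept their direction, which the choice of these genes in the same mice largely fixes, and no adjusted p was under 0.156. The count of genes at least 2 times higher in Glu7 in every mouse was 26 to 40 against 29, and 26 without the shorter barcode of each pair, chosen after seeing the data. High-Gapdh libraries alone left 1 mouse per state, so no test was run, and a minimum of 20 cells kept the same mice. Counts of unadjusted p under 0.05 in Glu7 ranged from 18 to 356. The share difference ranged from 5.44 to 17.9 points of Glu cells, with no p under 0.1, and from 0.968 (within batch 1) to 6.02 points of neurons, with no p under 0.133. Depth left 3994 genes to test in Glu7, against 9040 in other Glu cells, and 2 normal mice limit the precision of every feeding value.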

Other observations

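Normal mice 1, 2 and 4 held 2, 2 and 5 Glu7 cells, too few for levels or tests. In normal mouse 4 Glu7 made up 7.04% of the Glu cells (95% Wilson interval 3.05% to 15.4%), and in normal mice 1 and 2 it made up 2 of 7 Glu cells each. Of the 20 leading genes, all 20 had a log2 ratio above 0 in the low-Gapdh libraries alone (lowest 1.25), in the high-Gapdh libraries alone (lowest 1.17) and with each other Glu cluster weighted equally (lowest 1.35). Of the Glu7 barcodes, 20 end in an undetermined base.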
